A study of Mus musculus with 8 samples.

Results

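Hepatokines are proteins that the liver secretes and that act as hormones or as binding proteins for hormones in other organs. The 9 hepatokine genes described here are Fgf21, Gdf15, Angptl4, Angptl8, Igfbp1, Fst, Inhbe, Tsku and Lect2, chosen by name from the 45706 genes of a liver RNA sequencing table. Their levels were compared between 4 WT mice and 4 S155A mice, with 1 library per mouse. All 8 mice were C57BL/6J females, 4 months of age, killed after an overnight fast. S155A mice (SA/SA in the paper) carry Plin5 edited with CRISPR-Cas9 in the germ line, so that alanine replaces the serine at which protein kinase A phosphorylates perilipin 5, a lipid droplet protein. The edit is present in every tissue under the gene's own promoter. The edited line was sequenced in 1 founder, and the controls carry no allele other than WT. No fed mice belong to these samples, so whether a gene responded to the fast cannot be told from them.

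In fasting, low insulin and high glucagon change hepatic hormone genes in several ways. Fatty acids activate the nuclear receptor PPARa, which induces Fgf21 and Angptl4, and low insulin frees the transcription factor FOXO1, which induces Igfbp1. Glucagon induces Fst, and insulin and feeding induce Angptl8. Gdf15 and Fgf21 are in addition targets of the integrated stress response, in which ATF4, CHOP and their C/EBP partners bind composite DNA elements.

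In these livers, 0 of the 9 hepatokine genes differed between S155A and WT mice at an adjusted p under 0.05 in edgeR's quasi-likelihood test, where 0% of the 14629 genes tested did (smallest adjusted p over all genes, 0.758). At an unadjusted p under 0.05 there were 0 of the 9, beside 3.4% of all genes (497 genes), and 0 of the 9 had groups that did not overlap, beside 2.3% of all genes. DESeq2 also called 0 of the 9, beside 0.0411% of all genes (6 genes). Mean differences went in both directions, with 5 members higher and 4 lower in S155A mice. The median log2 fold change was 0.048 over the 9 members and -0.0050 over all genes tested. Single mice differed by amounts that varied widely between members. Fst ranged 31.6-fold over the 8 mice, Tsku 14.9-fold and Igfbp1 10.1-fold, whereas Inhbe ranged 1.45-fold and Angptl4 1.55-fold.

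Sequence before the annotated start is shown for 4 of the members, because it holds the elements named above and the values below can be read with them at hand. In the RefSeq promoters of GRCm38.p6, 7 of the 9 members have an entry. The 250 bases before each start were searched on both strands. The first window, from Igfbp1, holds the insulin response element CAAAACA in capitals, which is in 5.56% of the 32851 promoters of the same length. The other 3 windows hold the CEBP-ATF response element TGATGNAA in capitals (3.45% of promoters), read on the opposite strand as TTGCATCA in Fgf21 and Inhbe. Each sequence is written 5′ to 3′ on the strand of its gene.
Igfbp1: gagctcacaagCAAAACAaacttattttg
Fgf21: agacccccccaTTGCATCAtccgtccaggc
Angptl8: agccatcagtcTGATGCAAtggctgagcct
Inhbe: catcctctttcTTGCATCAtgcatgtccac

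The Igfbp1 window lies at chr11:7197668-7197696 on the forward strand, with the element 108 to 102 bases before the start. The Fgf21 window is chr7:45615611-45615640 on the reverse strand, with the element 139 to 132 bases before the start. For Angptl8 it is chr9:21835369-21835398 on the forward strand (130 to 123 bases before the start), within the span of Dock6, which is transcribed from the opposite strand. For Inhbe it is chr10:127352011-127352040 on the reverse strand, 181 to 174 bases before the RefSeq start. GENCODE M21 begins Inhbe farther upstream, so in that annotation the window is in an exon of the gene.

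Other letters searched were the FOXO site GTAAACA (3.17% of promoters), the cAMP response element TGACGTCA (1.55%) and the 5 letters TGACG (17.8%), which are part of the full element. The search also covered the nuclear receptor letters AGGTCA (14% of promoters), the E-box CACGTG (6.02%) and the glucocorticoid receptor letters TGTTCT (16.1%). Fgf21 held TGACG 68 to 64 bases and CACGTG 50 to 45 bases before its start. Gdf15 held AGGTCA 55 to 50 bases before one start and CACGTG 83 to 78 bases before another. In Tsku and Lect2 none of these letters was found in the window. A match describes the letters, not a site that was shown to be bound.

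Library depth ran from 39709785 to 54540864 estimated counts, and levels are given as CPM, counts scaled to the TMM-normalized library size. Plin5 itself averaged 206 ± 32.3 CPM in WT and 328 ± 118 CPM in S155A mice (SD, n = 4 each, log2 fold change 0.67, standard error 0.24, edgeR unadjusted p = 0.0193, adjusted p = 0.993), and its count does not read the edited codon. Summed hepatocyte markers (Alb, Apoa1, Ttr, Cps1, Tat and Hnf4a) were at 88251 to 103671 CPM in WT mice and 84186 to 122507 CPM in S155A mice. The sample labels name hepatocytes, but 7 of 7 Kupffer cell and 6 of 6 stellate cell markers were present as well, so the values are those of liver tissue. In bulk tissue, fewer cells of a type and less RNA per cell cannot be told apart. Stellate cell markers summed to 254 to 331 CPM in WT mice and 117 to 258 CPM in S155A mice, with 0 of 6 higher in S155A mice. Mean levels of 7 of 7 Kupffer cell, 7 of 7 lymphocyte and 5 of 6 hepatocyte markers were higher in S155A mice. So were 2 of 6 sinusoidal endothelial and 1 of 5 cholangiocyte markers, and by log2 fold change 48.8% of all genes tested. Kupffer cell sums overlapped, at 187 to 371 CPM in WT and 201 to 435 CPM in S155A mice. The lymphocyte means include S155A mouse 3, described next. The library of S155A mouse 3 stood apart, with lymphocyte markers at 2055 CPM against 17.7 to 42.6 CPM in WT mice. Most of that sum was from the immunoglobulin genes Ighm (1164 CPM) and Igkc (806 CPM). The T and NK cell markers Cd3e and Nkg7 were at 1.40 and 1.48 CPM in this mouse. WT mouse 2 held pancreatic acinar markers at 27.3 CPM. Adipocyte markers stayed at or below 0.800 CPM in every library, with Lep at 0 in all. The part of these markers in the results was not tested. The mice carry animal numbers in 2 ranges, 89 to 123 (replicates 1 and 4 of each genotype, the low range) and 830 to 869 (replicates 2 and 3, the high range). What the ranges stand for is not stated.

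Fgf21 (ENSMUSG00000030827, chromosome 7 of GRCm38, 45613886 to 45615490, reverse strand, 3 exons) encodes fibroblast growth factor 21, the hormone that the fasted liver releases under PPARa. WT mice 1 to 4 were at 32.1, 33.9, 23.8 and 30.5 CPM, and S155A mice 1 to 4 at 44.4, 20.02, 19.0 and 42.4 CPM. The S155A mice split into a pair above every WT mouse and a pair below every WT mouse. Its mean was 30.1 ± 4.41 CPM in WT and 31.5 ± 13.8 CPM in S155A mice (SD, n = 4 each). The log2 fold change was 0.07 (standard error 0.28, 95% interval -0.56 to 0.69, edgeR adjusted p = 0.996), and an exact permutation test of log2 CPM, two-sided, gave p = 0.971. On mean log2 CPM the difference was -0.04, so the sign depended on the scale.

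The pair of high S155A mice has low animal numbers and the pair of low ones has high numbers. Within the low range S155A mice exceeded WT mice by 0.47 in mean log2 CPM, and within the high range they were lower by 0.54 (difference -0.54). Fgf21 was 1 of 9 members, the sole one, with an unadjusted interaction p under 0.05 (difference of differences 1.04, standard error 0.24), beside 11.1% of all genes. Its adjusted interaction p was 0.257 in edgeR's test, above 0.05. Plin2, a lipid droplet gene of the PPARa list, had differences of 0.47 and -0.50 in the low and high range (interaction 0.97, edgeR adjusted p = 0.220). Leaving out S155A mouse 3 gave Fgf21 a log2 fold change of 0.25, and leaving out S155A mouse 1 gave -0.15. The FGF21 receptors and their co-receptor gave 0 of 5 genes past the adjusted threshold. Klb, which encodes the co-receptor beta-klotho, was at 29.9 ± 1.96 CPM in WT and 30.3 ± 3.35 CPM in S155A mice (SD, n = 4 each).

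**Figure D1:**
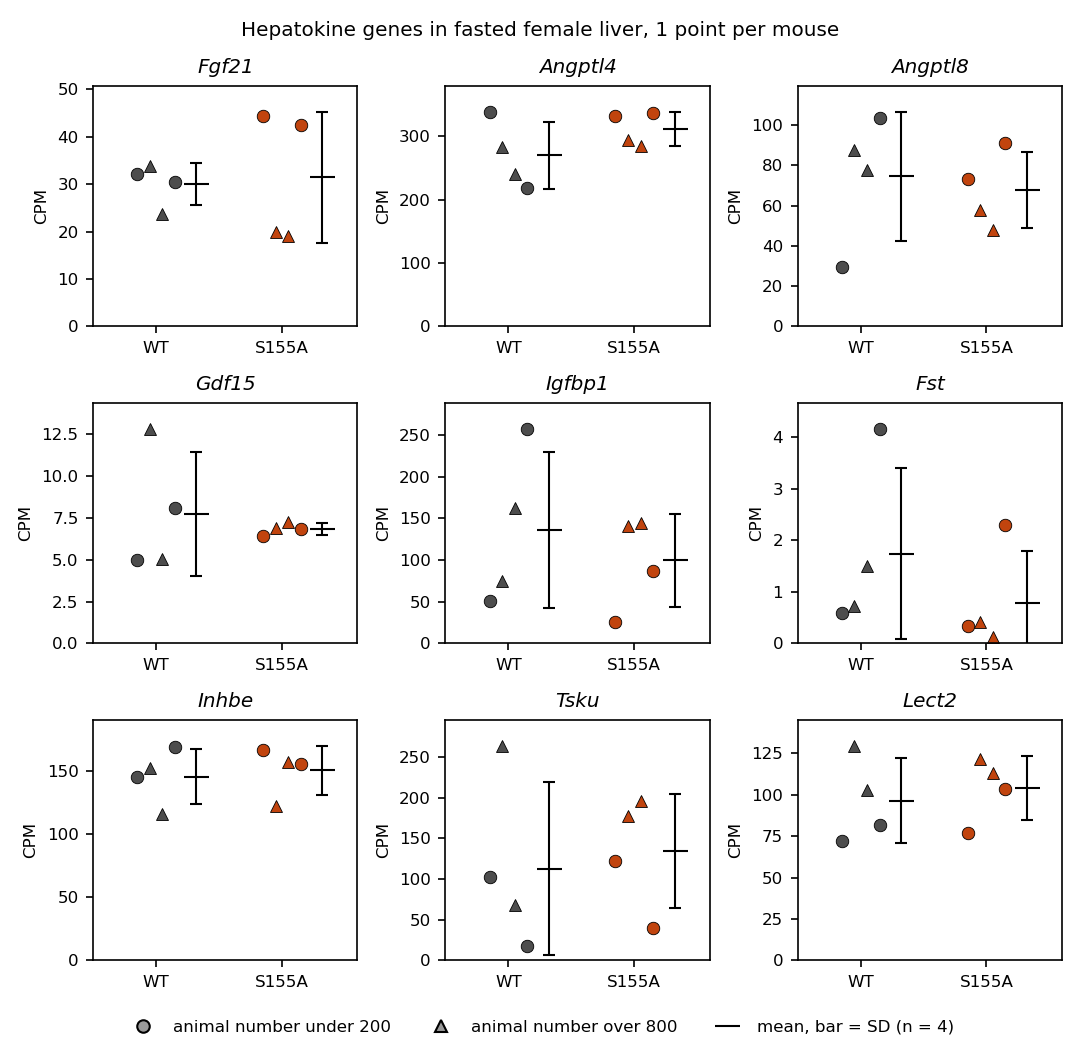
CPM of each hepatokine gene (y axes, linear from 0) in the 4 WT and 4 S155A mice, with circles for animal numbers 89 to 123 and triangles for 830 to 869. The bars beside the points give the mean and SD (n = 4 each; the bar of Fst in S155A mice is clipped at 0). Fgf21 in S155A mice forms a pair at 42.4 and 44.4 CPM and a pair at 19.0 and 20.02 CPM, on both sides of the WT mice.

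Gdf15 (ENSMUSG00000038508, chromosome 8, 70629393 to 70632456, reverse strand) encodes growth differentiation factor 15, a stress hormone that lowers appetite through the brainstem receptor GFRAL. The 4 WT mice were at 4.98, 12.8, 5.03 and 8.07 CPM, and the 4 S155A mice at 6.395, 6.91, 7.26 and 6.84 CPM. All 4 S155A mice lay between the WT mice, in a narrow band. The coefficient of variation was 47.8% in WT and 5.18% in S155A mice, a difference that was not tested. Counting error alone gives about 5.55% at the mean count of 325 in S155A mice and 5.07% at the mean of 389.8 in WT mice. For Gdf15 the log2 fold change was -0.17 (standard error 0.28, 95% interval -0.80 to 0.46, edgeR adjusted p = 0.993; two-sided exact permutation p = 0.914). Without WT mouse 2, the highest of the 8, it was 0.18. Neither Gfral nor its partner Ret passed the filter on low counts in liver.

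Among the targets of the integrated stress response, 5 of 8 were higher and 3 lower in S155A mice, with a median log2 fold change of 0.25 and 0 of 8 past the adjusted threshold. Trib3, a pseudokinase gene under ATF4 and CHOP, was at 7.42 ± 1.999 CPM in WT and 12.8 ± 3.53 CPM in S155A mice (SD, n = 4 each, log2 fold change 0.78, edgeR unadjusted p = 0.00972, adjusted p = 0.993). Ddit4 had a log2 fold change of 0.68 (edgeR adjusted p = 0.993), with -0.33 in the low and 1.37 in the high range on mean log2 CPM. For Trib3 these differences were 0.31 and 1.23. The median difference of the list was -0.099 in the low and 0.59 in the high range. Fgf21 and Gdf15, the members introduced above as targets of this pathway, had log2 fold changes of 0.07 and -0.17.

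Angptl4 and Angptl8 encode secreted inhibitors of lipoprotein lipase, the enzyme that hydrolyses the triglyceride of circulating lipoproteins and so releases fatty acids. Angptl4 (ENSMUSG00000002289, chromosome 17, 33773750 to 33781830, reverse strand) was steadier across mice than Fgf21. Its levels were 337, 282, 241 and 218 CPM in WT mice 1 to 4, and 332, 294, 284 and 337 CPM in S155A mice 1 to 4. The lowest 3 of the 8 mice were WT mice, but WT mouse 1 was level with the highest S155A mouse, and the groups overlapped. Angptl4 gave a log2 fold change of 0.21 (standard error 0.14, 95% interval -0.11 to 0.53, edgeR adjusted p = 0.993; two-sided exact permutation p = 0.200). It was 0.30 in the low and 0.15 in the high range of animal numbers on mean log2 CPM, and between 0.12 and 0.34 with each mouse left out in turn.

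Angptl8 (ENSMUSG00000047822, chromosome 9, 21835510 to 21837347, forward strand) appears in the table under its older symbol Gm6484 and was matched by identifier. Feeding and insulin induce it. WT mice were at 29.4, 87.7, 77.8 and 104 CPM, and S155A mice at 73.4, 57.7, 47.9 and 91.1 CPM. WT mouse 1 was the lowest of the 8 and WT mouse 4 the highest, with the S155A mice between them. Between genotypes Angptl8 gave a log2 fold change of -0.14 (standard error 0.34, 95% interval -0.89 to 0.61, edgeR adjusted p = 0.996; two-sided exact permutation p = 0.943). Its genotypes differed in mean log2 CPM by 0.57 in the low and by -0.65 in the high range of animal numbers (interaction 0.96, standard error 0.64, edgeR adjusted p = 0.622). Without WT mouse 4 this interaction was 2.13 (standard error 0.25, edgeR adjusted p = 0.0391), with WT mouse 1 then the sole WT mouse of the low range and assumed to vary like the others, and 0.269% of all genes (40 genes) passed in that setting. Dock6, whose span holds Angptl8 on the opposite strand, was at 16.4 to 24.1 CPM, and use of strand in the counting is not given in the sources used here.

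The other genes of the lipoprotein lipase system gave 0 of 5 past the adjusted threshold, with 5 of 5 mean differences higher in S155A mice and a median log2 fold change of 0.15. Lpl, the lipase gene itself, had a log2 fold change of 0.33 (edgeR adjusted p = 0.993). Its difference was -0.57 in the low and 1.11 in the high range on mean log2 CPM.

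**Figure D2:**
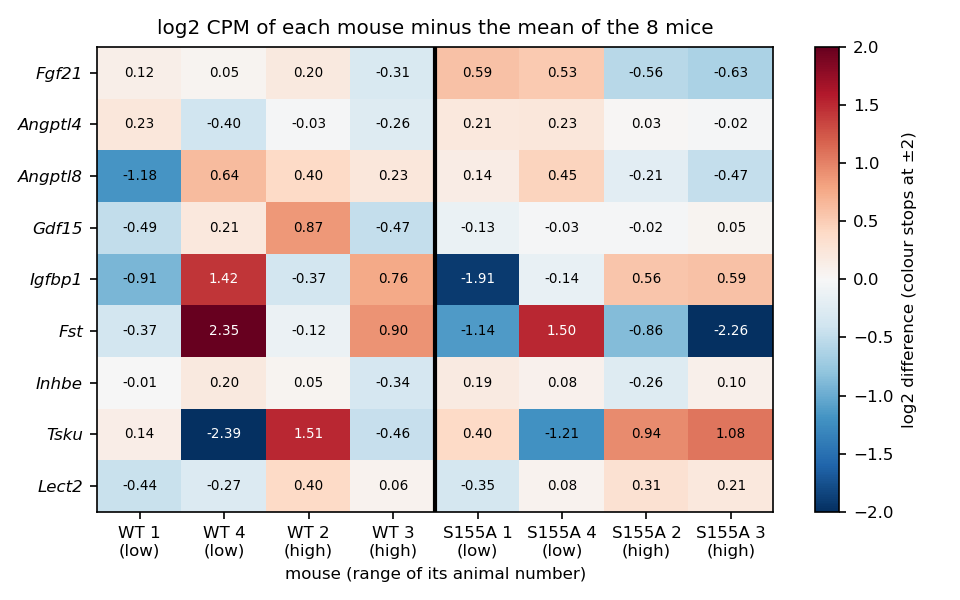
Heat map of log2 CPM in each mouse minus the mean of the 8 mice, for the 9 hepatokine genes (vertical) by mouse (horizontal, WT left of the line, with the range of the animal number below). Fst and Tsku are at their extremes in opposite directions in WT mouse 4 (2.35 and -2.39), while Inhbe stays within 0.34 of its mean in every mouse.

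Igfbp1 (ENSMUSG00000020429, chromosome 11, 7197782 to 7202546, forward strand) encodes insulin-like growth factor binding protein 1, which insulin represses through FOXO1 at elements such as the one printed above. WT mice were at 51.0, 74.3, 162 and 258 CPM, and S155A mice at 25.4, 141, 145 and 87.0 CPM. The lowest mouse was S155A mouse 1 and the highest WT mouse 4, and both genotypes covered most of the range between. Its log2 fold change was -0.45 (standard error 0.57, 95% interval -1.73 to 0.83, edgeR adjusted p = 0.993; two-sided exact permutation p = 0.571). It was 0.056 without WT mouse 4 and -0.73 without WT mouse 1. By range of animal numbers, mean log2 CPM differed by -1.28 in the low and by 0.38 in the high range (interaction -1.73, standard error 1.05, edgeR adjusted p = 0.585).

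Of the other insulin-like growth factor genes and their binding proteins, 0 of 10 passed the adjusted threshold, with 7 higher and 3 lower and a median log2 fold change of 0.045. Igfbp2, another binding protein gene, was at 1111 ± 121 CPM in WT and 1352 ± 233 CPM in S155A mice (SD, n = 4 each, log2 fold change 0.28, edgeR adjusted p = 0.993). Igfbp5 had a log2 fold change of 0.62 (edgeR adjusted p = 0.993), with -0.64 in the low and 1.79 in the high range on mean log2 CPM.

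Fst and Inhbe belong to the activin system. Fst (ENSMUSG00000021765, chromosome 13, 114452290 to 114458951, reverse strand) encodes follistatin, which binds and neutralises activins. Its counts were 32, 36, 71 and 211 in WT mice 1 to 4, and 18, 20, 5 and 116 in S155A mice 1 to 4. As CPM these were 0.597, 0.717, 1.49 and 4.16 in WT and 0.334, 0.414, 0.132 and 2.29 in S155A mice. The lowest 3 of the 8 mice were S155A mice, but S155A mouse 4 was above 3 of the 4 WT mice, and at these counts the gene was the least abundant of the 9. The log2 fold change of -1.12 was the largest in size of the 9, and its error was the largest as well (standard error 0.86, 95% interval -3.04 to 0.80, edgeR adjusted p = 0.993; two-sided exact permutation p = 0.200). It rested on single mice, at -0.23 without WT mouse 4, -2.54 without S155A mouse 4 and -0.78 without S155A mouse 3.

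Inhbe (ENSMUSG00000047492, chromosome 10, 127348857 to 127354411, reverse strand) encodes the activin E subunit, which the liver secretes and which acts on adipose tissue. WT mice were at 146, 152, 116 and 169 CPM, and S155A mice at 167, 122, 157 and 156 CPM. It was the steadiest member, and the genotypes covered the same range. Inhbe gave a log2 fold change of 0.05 (standard error 0.14, 95% interval -0.26 to 0.36, edgeR adjusted p = 0.996; two-sided exact permutation p = 0.657). In the remaining activin genes 0 of 9 tested passed the adjusted threshold, with 2 higher and 7 lower in S155A mice and a median log2 fold change of -0.18. Inhba, the activin A subunit gene, was at 2.44 ± 0.524 CPM in WT and 1.55 ± 1.17 CPM in S155A mice (SD, n = 4 each, log2 fold change -0.65, edgeR adjusted p = 0.993), and the receptor gene Acvr2a had a log2 fold change of -0.25 (edgeR adjusted p = 0.993). These 2 values stand beside the stellate cell markers that were lower in S155A mice, whose part in them was not tested.

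Tsku and Lect2 encode hepatokines known mainly from overnutrition. Tsku (ENSMUSG00000049580, chromosome 7, 98350668 to 98361328, reverse strand) encodes tsukushi, a small leucine-rich secreted protein. WT mice were at 102, 264, 67.7 and 17.7 CPM, and S155A mice at 122, 178, 196 and 40.0 CPM. The highest and the lowest of the 8 mice were both WT mice. S155A over WT, Tsku gave a log2 fold change of 0.25 (standard error 0.69, 95% interval -1.28 to 1.78, edgeR adjusted p = 0.996; two-sided exact permutation p = 0.543), and it was 1.10 without WT mouse 2 and -0.11 without WT mouse 4.

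Lect2 (ENSMUSG00000021539, chromosome 13, 56542464 to 56548502, reverse strand) encodes leukocyte cell-derived chemotaxin 2, a hepatocyte protein reported to bind the receptors MET and TIE1. It was at 72.4, 130, 103 and 81.5 CPM in WT mice and 77.2, 122, 113 and 104 CPM in S155A mice. The 2 lowest mice, WT mouse 1 and S155A mouse 1, came from different genotypes. For Lect2 the log2 fold change was 0.11 (standard error 0.20, 95% interval -0.33 to 0.55, edgeR adjusted p = 0.996; two-sided exact permutation p = 0.629). Met and Tie1 gave log2 fold changes of -0.05 and -0.26 (edgeR adjusted p = 0.996 and 0.993).

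**Figure D3:**
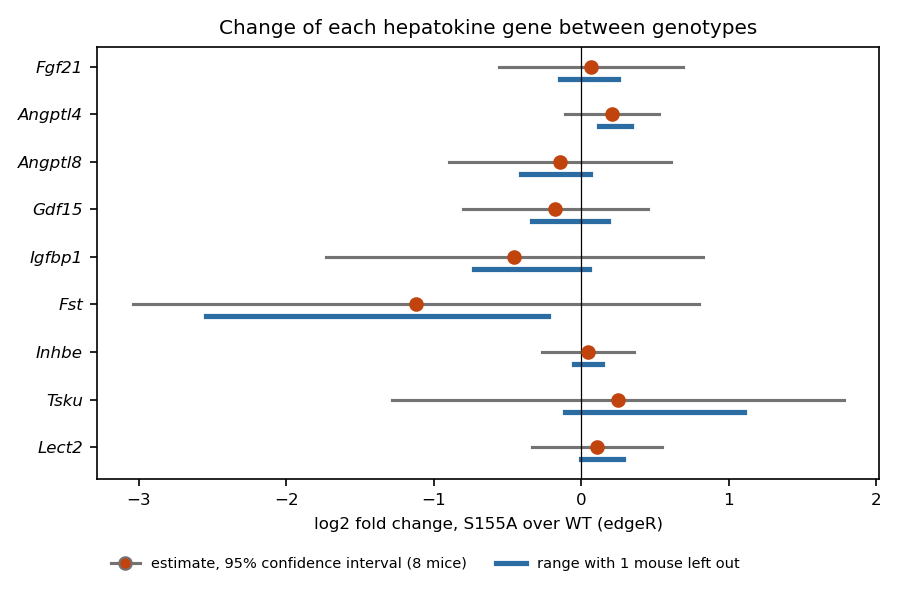
Log2 fold change of each hepatokine gene, S155A over WT (x axis), with the estimate as a point, its 95% interval as a grey line and the range with 1 mouse left out as a blue line. All 9 intervals cross 0, from -3.04 to 0.80 for Fst to -0.26 to 0.36 for Inhbe.

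The range of animal numbers was a second way in which the mice differed. Of the 9 members, 4 (Fgf21, Angptl8, Gdf15 and Igfbp1) had differences of opposite sign in the low and the high range, or 44.4%, beside 54.9% of all genes tested. Angptl4, Fst, Inhbe, Tsku and Lect2 had the same sign in both ranges, with 2 mice of each genotype in each. Fst was lower in S155A mice in both, with differences of -0.81 and -1.95 in mean log2 CPM in the low and the high range. Tsku was higher by 0.72 and 0.48. For no member did the edgeR interaction test with all 8 mice pass an adjusted p of 0.05, and the count over all genes was 0 as well (0%), with 1622 genes at an unadjusted p under 0.05 and a smallest adjusted p of 0.0851.

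**Figure D4:**
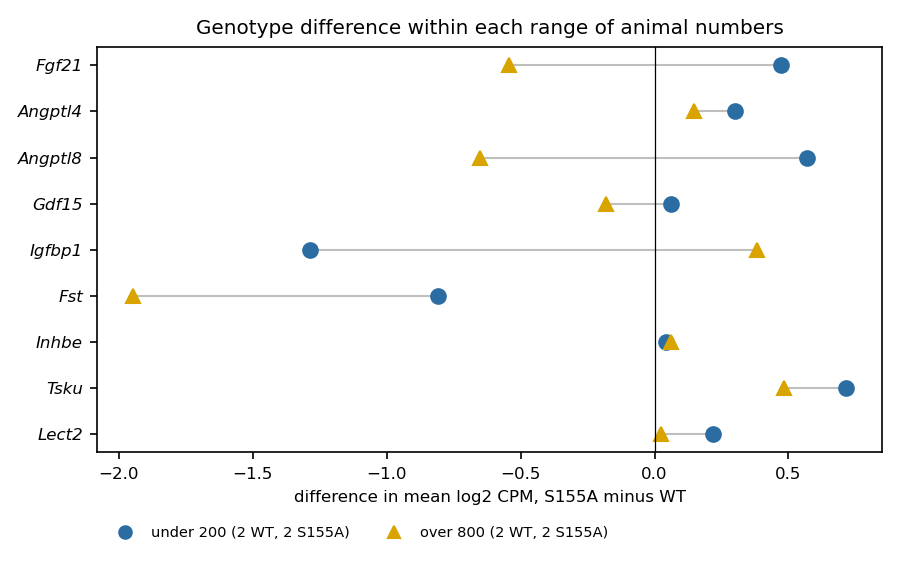
Difference in mean log2 CPM, S155A minus WT (x axis), for each hepatokine gene within the low range of animal numbers (circles, 89 to 123) and the high range (triangles, 830 to 869), with 2 mice of each genotype in each. Igfbp1 runs from -1.28 to 0.38, Angptl8 from 0.57 to -0.65 and Fgf21 from 0.47 to -0.54, while Inhbe has 0.04 and 0.06.

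Levels of different genes were compared as CPM per kb of the longest annotated transcript. In WT mice the order of mean levels was Lect2 (115 ± 30.4), Igfbp1 (89.3 ± 61.6), Angptl8 (86.2 ± 36.9), Angptl4 (81.5 ± 15.8), Tsku (40.9 ± 38.6), Fgf21 (31.6 ± 4.63), Inhbe (27.4 ± 4.14), Gdf15 (5.00 ± 2.39) and Fst (0.597 ± 0.569), each as SD with n = 4. Of the 8 neighbouring pairs in this order, 2 were separated in every WT mouse, Inhbe above Gdf15 and Gdf15 above Fst, and the other neighbours overlapped. Among genes farther apart in the order, every WT mouse was higher in Lect2 (at least 86.5) and in Angptl4 (at least 65.9) than any was in Fgf21 (at most 35.6) or Inhbe (at most 31.8). Length bears on it: Inhbe has an annotated transcript of 5319 bases and a coding sequence of 1050 bases. Per kb of coding sequence Angptl4 came first (219 ± 42.5, SD, n = 4), Inhbe was the fourth (139 ± 20.97, SD, n = 4), and Gdf15 and Fst were again last. The neighbours separated in every WT mouse were then Fgf21 above Gdf15 and Gdf15 above Fst. On that scale Lect2 (at least 159.8) and Inhbe (at most 160.9) overlapped in WT mice, while Angptl4 (at least 177) stayed above Inhbe.

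Between-mouse spread set the members apart from each other. The SD of log2 CPM over the 8 mice exceeded that of 99.1% of tested genes for Fst, 98.5% for Tsku and 96.8% for Igfbp1. It exceeded that of 84.4% for Angptl8, 74.4% for Fgf21, 71.1% for Gdf15 and 57.0% for Lect2. Angptl4 and Inhbe varied less than most genes, above 40.8% and 32.6% of them. Low counts add to the spread of Fst, whose lowest library held 5 counts.

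Pairs of members were then compared over the 8 mice. None of the 36 pairs passed an adjusted p of 0.05 by exact permutation of log2 CPM (smallest 0.222 for Pearson and 0.4996 for Spearman), and 2 pairs had an unadjusted Pearson p under 0.05. Fst and Tsku ran opposite to each other (Pearson r = -0.86, exact permutation p = 0.00618, adjusted 0.222; Spearman rho = -0.74, exact permutation p = 0.0458, adjusted 0.4996; r = -0.74 without WT mouse 4 and S155A mouse 3). Angptl4 and Igfbp1 did so as well (r = -0.80, exact permutation p = 0.0182; rho = -0.76, exact permutation p = 0.0368; r = -0.64 without WT mice 3 and 4). Among the 3 genes with a CEBP-ATF element printed above, r was 0.56 for Fgf21 and Inhbe, 0.33 for Fgf21 and Angptl8 and 0.19 for Angptl8 and Inhbe, with adjusted exact permutation p of 0.663, 0.729 and 0.798.

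Each member was also set against the mean standardised log2 CPM of 4 lists of pathway targets over the 8 mice, 36 relations in all, a comparison chosen after the members' values were seen. Fgf21 followed the PPARa fasting targets (r = 0.92, exact permutation p = 0.000694, adjusted p = 0.0193; rho = 0.88, exact permutation p = 0.00724, adjusted p = 0.0869). The relation had the same sign for 10 of 10 list genes, from 0.11 for Cpt1a to 0.92 for Plin2. It was 0.86 without S155A mice 2 and 3, and 0.81 after the mean of each range of animal numbers was removed. The permutation treats the 8 mice as exchangeable whatever their range, and no p was computed for either of these values. The S155A mice that were high in Fgf21 were thus also the highest in PPARa targets, and those that were low were the lowest. Angptl4, also introduced above as induced by PPARa, did not follow this list, with 7 of 10 genes positive. Its r was 0.20 (exact permutation p = 0.638, adjusted p = 0.857; rho = 0.33, exact permutation p = 0.428), and -0.079 with the range means removed. The list itself gave 0 of 10 genes past the adjusted threshold between genotypes, with 5 higher and 5 lower and a median log2 fold change of -0.02. By qPCR, the paper reports Cpt1a mildly lower in fasted female SA/SA liver, and a difference in Plin2. In these libraries Cpt1a and Plin2 had log2 fold changes of 0.04 and 0.08 (edgeR adjusted p = 0.996 each). The paper's RNA sequencing did not call Cpt1a either, which it considers likely due to the smaller sample size. Vnn1, which encodes the pantetheinase vanin 1, had a log2 fold change of -0.23 (edgeR adjusted p = 0.993).

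Igfbp1 followed the insulin-repressed FOXO1 targets Pck1, G6pc, Irs2, Insr and Trib1 (r = 0.92, exact permutation p = 0.00161, adjusted p = 0.0193; rho = 0.93, exact permutation p = 0.00223, adjusted p = 0.0804). All 5 list genes had a positive r with it, and r was 0.81 without WT mouse 4 and S155A mouse 1 and 0.93 with the range means removed. Angptl4 ran opposite to the same list (r = -0.85, exact permutation p = 0.00119, adjusted p = 0.0193; rho = -0.83, exact permutation p = 0.0154, adjusted p = 0.138), with 0 of 5 genes positive and r = -0.93 without the same pair of mice. The relation of Fgf21 to PPARa targets and those of Igfbp1 and Angptl4 to FOXO1 targets alone passed an adjusted Pearson p of 0.05. By Spearman's rho 0 of 36 did (smallest adjusted p 0.0804).

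The FOXO1 targets held the sole gene on any of these lists whose groups did not overlap. G6pc, the catalytic subunit of glucose-6-phosphatase, was at 213 to 451 CPM in WT and 154 to 208 CPM in S155A mice (log2 fold change -0.75, standard error 0.22, edgeR unadjusted p = 0.00655, adjusted p = 0.993; DESeq2 adjusted p = 0.455). Its two-sided exact permutation p was 0.0286, the smallest that 4 mice against 4 allow, and 1.36% of all genes were lower in S155A mice without overlap. By qPCR, the paper reports no change of G6pc in female or young male SA/SA liver. It describes a trend toward reduction in old male SA/SA liver. Irs2, an insulin receptor substrate gene, had a log2 fold change of -0.68 (edgeR adjusted p = 0.993). WT mouse 4 was at 34.1 CPM, the other WT mice at 8.42 to 11.3 CPM and the S155A mice at 6.23 to 13.6 CPM. In mean log2 CPM it differed by -1.46 in the low and by 0.44 in the high range of animal numbers. The paper's qPCR found Irs2 lower in old male but not in female SA/SA liver. Over the list, 0 of 5 were higher in S155A mice, 0 passed the adjusted threshold and the median log2 fold change was -0.17.

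Tsku followed the insulin-induced lipogenic genes with 6 of 6 of the same sign (r = 0.81, exact permutation p = 0.0140, adjusted p = 0.126; rho = 0.90, exact permutation p = 0.00456, adjusted p = 0.0821), which did not pass the correction. Its r was highest with Fasn, at 0.91. Between genotypes the lipogenic list gave 0 of 6 past the adjusted threshold, with Scd1, a stearoyl-CoA desaturase, at a log2 fold change of -1.42 (edgeR unadjusted p = 0.0176, adjusted p = 0.993) and Fasn at 0.33 (edgeR adjusted p = 0.993). Gdf15 against the stress response list gave r = 0.05 (exact permutation p = 0.905; rho = 0.48, exact permutation p = 0.243).

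**Figure D5:**
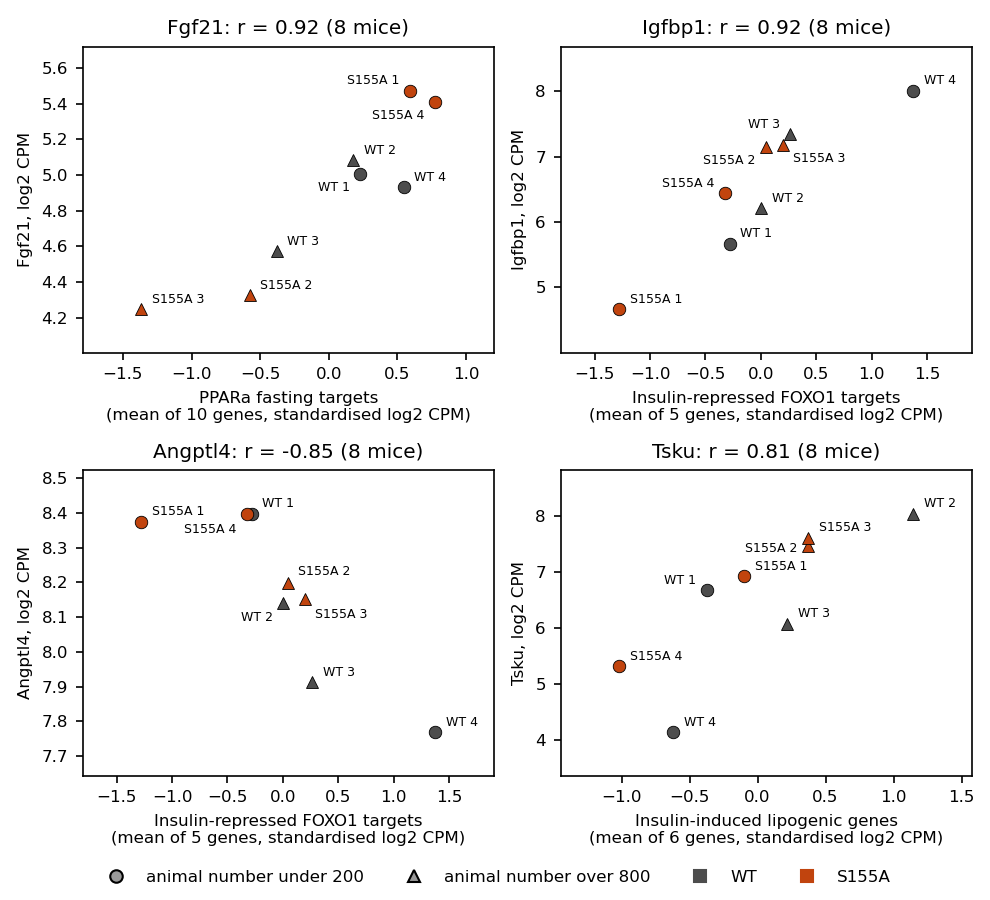
Log2 CPM of Fgf21, Igfbp1, Angptl4 and Tsku (y axes) against the mean standardised log2 CPM of a list of pathway targets (x axes), 1 point per mouse, with colour for genotype and shape for the range of animal numbers. Pearson's r over the 8 mice is 0.92, 0.92, -0.85 and 0.81, and mice of both genotypes lie along each relation.

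Of all tested genes, those whose log2 CPM over the 8 mice was most like a member were found by Pearson's r, given without a test. For Fgf21 they were Gm20695 (0.99), Homer3 (0.97) and Csnk1d (0.97), and for Angptl4 Tmem50b (0.98), Psmd8 (0.98) and Tmem186 (0.97). Angptl8 was most like Desi1 (0.99), Itgb5 (0.97) and Zbtb22 (0.97), and Gdf15 like Zfp524 (0.97), Ambra1 (0.95) and Mepce (0.94). Among the genes most like Igfbp1 were Scap (0.95), which encodes the escort protein of the SREBP transcription factors, Rac3 (0.94) and Cep89 (0.93). With so many genes and 8 mice, values of this size describe the ranking and nothing more. Fst was most like Bik, Ints9 and Ddx10 (0.98 each), and Inhbe like Adcy3 (0.96), Etf1 (0.95) and Sidt2 (0.95). For Tsku the genes were Junos, Slc5a6 and Aifm2 (0.98 each). For Lect2 they were Gstt1 (0.98), Apoc1 (0.98) and Serpina6 (0.97), and Serpina6, the corticosteroid-binding globulin gene, ran from 82.1 CPM in WT mouse 1 to 516 CPM in WT mouse 2, the same mice in which Lect2 was lowest and highest.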

How the data were processed

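Liver RNA of 4 WT and 4 S155A female mice was sequenced as stranded mRNA libraries, 1 per mouse. The authors deposited expected counts per gene, estimated with salmon and scaled for transcript length, without normalization for library size. Per the labels, the processing notes name bcl2fastq, STAR, SAMtools, MultiQC, DESeq2 and GRCm38 with no role. The salmon version, annotation release and strand setting are not given in the sources used here. Length scaling can move a gene's count where isoform use differs between mice.

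Rounded estimated counts were filtered with filterByExpr (minimum count 10), which left 14629 of 45706 genes. Groups came from the sample labels, and table columns were matched to mice by animal number. S155A mice were compared with WT mice by edgeR 4.0.16 (R 4.3.3) with TMM normalization, the quasi-likelihood test, Benjamini-Hochberg adjustment over all genes tested and no block. Standard errors and 95% intervals come from the F statistic. The interaction of genotype with the range of animal numbers was fitted the same way. Log2 CPM uses a prior count of 2. Single genes were also tested by exact permutation (two-sided) over 70 splits of the mice, whose smallest p is 0.0286, and correlations by all 40320 orders of the mice. Scripts were tested on simulated data. Counting error at these depths was largest for Fst and Gdf15 among the members. For Fst it was 10.7% in WT and 15.9% in S155A mice, well below the coefficients of variation of 95.4% and 127%.

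Coordinates are from GENCODE M21 (GRCm38), which holds 45143 of the 45706 identifiers, and promoters from RefSeq (GRCm38.p6). Of the members, 8 matched by name and 1 by identifier. No libraries were copies (lowest chi-square per gene, 40.2, for S155A mice 2 and 3). The members, the lists and the comparisons were chosen with earlier results of these data known. The genes named are Plin5, the members, the 3 genes most like each member and, of each list, those called or otherwise the 2 with the smallest p, besides Klb, Plin2, Dock6 and genes that bound a correlation, named after their values were seen. Some genes that this rule gives are not reported here. Alternatives were DESeq2 1.42.0, limma-voom (limma 3.58.1), other scalings, filters, a robust fit, blocks and leaving out each mouse.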

Additional observations from a re-analysis of the deposited data

Results flagged for a closer look

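Fst in S155A mouse 4, at 2.29 CPM, stood far above the other S155A mice, which were at 0.132 to 0.414 CPM. The gap to the nearest of them was 0.870 of the group's whole range. Of the 18 groups of 4 mice checked (9 members in 2 genotypes) this was the 1 beyond Dixon's limit, where chance gives about 0.9. The limit was applied to CPM. On log2 CPM this mouse was at 1.22 and the other S155A mice at -2.53 to -1.14, a scale on which the limit was not tested. The same mouse was second lowest of the 8 in Tsku, at 40.0 CPM. WT mouse 4 was highest in Fst (4.16 CPM) and lowest in Tsku (17.7 CPM), and both mice have animal numbers of the low range. Without S155A mouse 4 the log2 fold change of Fst was -2.54 (edgeR adjusted p = 0.953).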

How the results depend on the processing

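In every alternative run, 0 of the 9 members and 0 of the pathway genes passed an adjusted p of 0.05 between genotypes, and the smallest adjusted p of a member was 0.854 (edgeR, no filter on low counts). Fgf21 changed sign with limma-voom (-0.018), with the replicate block (-0.030) and with the range of animal numbers as a block (-0.042), and the cause was not tested. With each mouse left out in turn its log2 fold change ran from -0.15 to 0.25. Other members changed sign with 1 mouse left out: Lect2 from -0.0044 (without WT mouse 1) to 0.28, Gdf15 from -0.33 to 0.18 (without WT mouse 2), Inhbe from -0.047 (without WT mouse 3) to 0.14, Angptl8 from -0.41 to 0.056 and Igfbp1 from -0.73 to 0.056 (both without WT mouse 4), and Tsku from -0.11 (without WT mouse 4) to 1.10. Angptl4 (0.12 to 0.34) and Fst (-2.54 to -0.23) kept their sign. The number of members higher in S155A mice then ran from 3 to 6. It was 3 without WT mouse 3 and without S155A mouse 1. The number with an adjusted interaction p under 0.05 ran from 0 to 1, the 1 being Angptl8 without WT mouse 4, beside 0.269% of all genes. With limma-voom or a block in place of none, Tsku ran up to 0.60. Fst had too few counts to be tested with a minimum of 1 CPM in 4 libraries. No pair of members passed the correction with a prior count of 0.5, and 2 neighbouring pairs were separated in the order of levels with either length or scaling (not the same 2 with coding length).

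Mice that share a replicate number are different animals. The correlations of their deviations were 0.056, 0.17, -0.11 and 0.13, 3 of 4 numbers correlated best with their own, and with the replicate block 0 genes were called, with 579 at an unadjusted p under 0.05. The 95% intervals allow a change of Fst between -3.04 and 0.80 and of Inhbe between -0.26 and 0.36 on the log2 scale, so small changes of the variable members were not detectable with 4 mice against 4.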

Other observations

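Other liver-secreted hormone genes and the regulators of hepatokine genes gave the same count. Of 14 secreted hormone genes tested, 0 passed an adjusted p of 0.05 in edgeR's test, with 9 higher and 5 lower in S155A mice and a median log2 fold change of 0.084. Manf, which encodes a secreted protein of the endoplasmic reticulum stress response, was at 41.0 ± 19.7 CPM in WT and 73.2 ± 45.3 CPM in S155A mice (SD, n = 4 each, log2 fold change 0.84, edgeR adjusted p = 0.993). In mean log2 CPM it differed by -0.31 in the low and by 1.81 in the high range of animal numbers. Fetub, the fetuin-B gene, had a log2 fold change of 0.28 (edgeR adjusted p = 0.993).

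Of 16 regulators, 0 passed the threshold, with 12 higher and 4 lower and a median of 0.099. Cebpb, whose product is a partner at the CEBP-ATF element, was at 38.4 ± 11.9 CPM in WT and 61.1 ± 25.7 CPM in S155A mice (SD, n = 4 each, log2 fold change 0.67, edgeR adjusted p = 0.993), higher in both ranges of animal numbers (0.35 and 0.86). Creb1, the cAMP response element factor, had a log2 fold change of -0.37 (edgeR adjusted p = 0.993). Over the 11 lists, 89 of 93 genes were tested. Of these, 3 had an unadjusted edgeR p under 0.05 (Scd1, G6pc and Trib3), a share like the 3.4% of all genes tested, and 0 an adjusted one. Of the FGF21 receptors, Fgfr2 and Fgfr3 had log2 fold changes of -0.27 and 0.09 (edgeR adjusted p = 0.993 and 0.996).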
